A study of Mus musculus with 24 samples.

Results

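The fiber cells of the mouse lens were compared with the lens epithelium at embryonic day E14.5, in 3 libraries of each tissue, which are all 6 libraries of that stage among the 24 of the series. Both groups came from lenses of CD1 mice, an outbred albino stock, for which no treatment is named, and were dissected by hand under magnification into an epithelium part and a fiber part before RNA extraction. No genotype or agent separates the groups, so tissue is the one labelled difference. The other 18 libraries hold the same tissues at E16.5, at E18.5 and just after birth, at P0.5, and they enter here through a shared estimate of the spread and a comparison of E14.5 with the later stages. Each replicate is described as biological. No source used here says whether a replicate pools animals, or whether equal replicate numbers in epithelium and fiber mean the same embryos.

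The lens is built from 1 cell lineage. Cells of the front epithelium divide, and those pushed past the equator leave the cell cycle, elongate and become fibers, under fibroblast growth factors from the eye fluids. Fibers fill with crystallins, the soluble proteins to which the lens owes its refraction, join through gap junctions and the water channel of the fiber membrane, and in the end degrade their nuclei, mitochondria and other organelles. At E14.5 the primary fibers, which grew from the back of the lens vesicle, have filled the lens, fibers from the equator are being added, and the nuclei are still in place. A net of capillaries, the tunica vasculosa lentis, covers the lens at this age and lies against the tissue that a dissection removes.

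All 12611 genes of the deposited count table were considered and 12427 could be tested. The E14.5 epithelium libraries held 8970302 to 11536674 counts and the fiber libraries 13010174 to 18455980. Crystallin genes took 1.91% ± 0.24 of all counts in epithelium and 24.5% ± 1.19 in fiber (mean ± SD, n = 3). The ribosomal RNA precursor gene Rn45s took 8.09 to 17.4% in epithelium and 3.98 to 9.12% in fiber. Levels below are CPM (library-scaled read counts of a gene), scaled with TMM, which sets the bulk of genes equal between libraries. A gene is called higher or lower at an adjusted p under 0.05 in edgeR's quasi-likelihood test and a difference of at least 2-fold. On this basis 1736 genes (14% of those tested) were higher in fiber and 2407 (19.4%) lower, so that 41.9% of the calls were higher. The median log2 difference of all genes was -0.0035 (log2 of fiber minus log2 of epithelium). When libraries were scaled by their totals instead, the median moved to -0.81, and 751 genes were higher and 5147 lower (12.7% higher). Scaling by totals without crystallin genes and Rn45s put it at -0.52, with 979 higher and 3792 lower (20.5% higher). Differences are therefore relative to the bulk of genes, and a difference between 0 and about 0.81 turns negative when totals are used. For the pathway and gene family lists at E14.5 below, the counts with totals follow those with TMM. Counts with TMM stand beside 14% higher and 19.4% lower among all genes, and counts with totals beside 751 and 5147 genes. A list near those shares does not stand out from all genes.

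**Figure D1:**
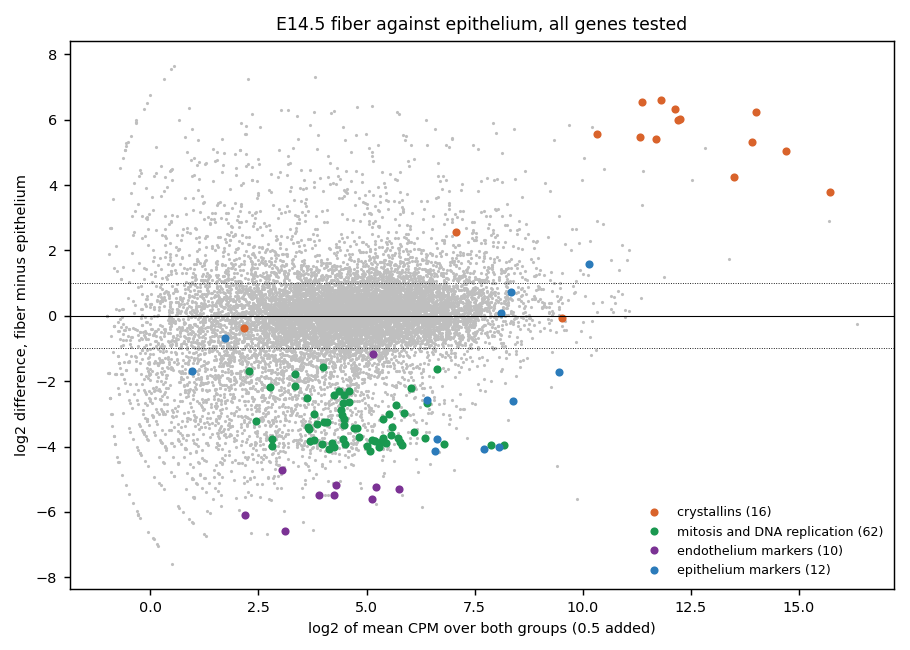
Log2 difference between E14.5 fiber and epithelium (vertical axis) against the log2 mean CPM (horizontal axis) for all 12427 genes tested, with 4 groups of genes coloured and dotted lines at 2-fold. Crystallins lie at the top right apart from Cryab (-0.05), Crybb2 (-0.38) and Crygs (2.57), and genes of mitosis and DNA replication all lie below the lower line.

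The 2 tissues also differed in genes of blood vessels and other cell types, and some of the genes lower in fiber are also known from these cells. Endothelium markers had a median log2 difference of -5.39, with all 10 lower in fiber, and their summed level was 399.7 to 461 CPM in the epithelium libraries and 26 to 38.5 in the fiber libraries. Cdh5, which encodes the adhesion protein of endothelial junctions, measured 75.7, 66.1 and 73.2 CPM in epithelium and 1.26, 3.36 and 1.35 in fiber. Every fiber library was below every epithelium library, and fiber replicate 2 was the highest of the fiber libraries. All 7 mural cell markers were lower (median -4.04; summed 261 to 293 against 53.4 to 57.9 CPM), as were 7 of 8 macrophage markers (median -3.17; 17.6 to 24.1 against 3.29 to 4.91), all 6 red cell genes tested (median -2.75; 196 to 298 against 24.5 to 37.6) and 7 of 8 mesenchyme markers (median -2.73; 652 to 739 against 103 to 115). None of these markers was at 0 in all libraries of either group. Pdgfra, which lens epithelium itself makes, supplied most of the mesenchyme sum, and Notch3 is counted with the mural cells and with the Notch genes. Tek among the endothelium markers and Notch3 among the mural cell markers fell least (log2 -1.16 and -1.62). Per kilobase of exon they were the highest of their lists in fiber, at 4.62 and 5.99 CPM per kb. Retina markers summed to 15 to 24.4 CPM in epithelium and 9.61 to 9.999 in fiber. Of the 9 tested, 5 had every fiber library below every epithelium library, 3 overlapped and 1 had every fiber library above. Rcvrn went up, from 0.43 CPM per kb in epithelium to 3.47 in fiber. Pigment cell markers summed to 8.16 to 16 and 86.5 to 94.5, of which the transcription factor gene Mitf made 82.2, 92.1 and 90.4 CPM in fiber, while the pigment cell gene Mlana had no count there. Fewer cells of a type and less RNA per cell cannot be told apart in such bulk samples. With totals the endothelium, mural cell and red cell counts were the same, and all 8 macrophage and all 8 mesenchyme markers were lower. The part of these cells in the results for genes that vessels also express was not tested.

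**Figure D2:**
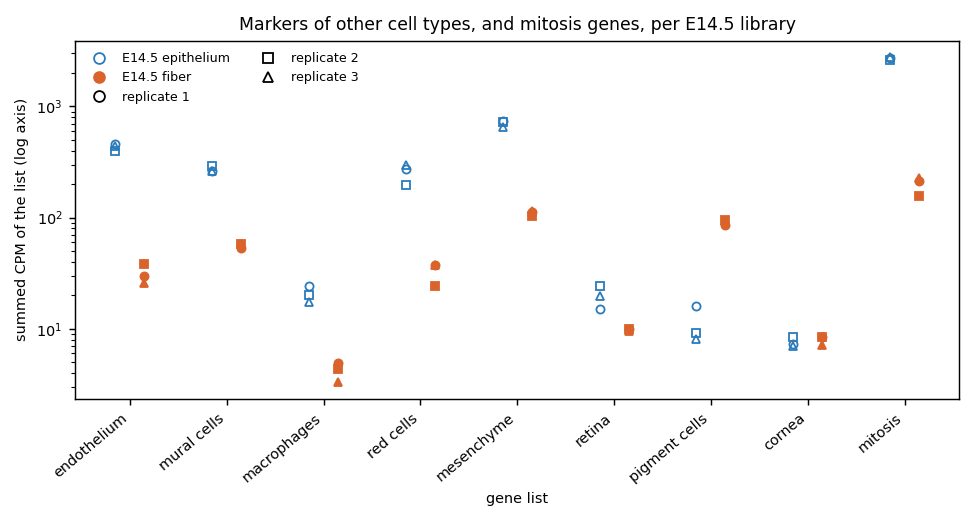
Summed CPM (log axis) of 8 lists of markers of other cell types and of the mitosis genes in each E14.5 library, with blue open symbols for epithelium, orange filled symbols for fiber and a shape for each replicate. Endothelium sums run from 399.7 to 461 CPM in epithelium and from 26 to 38.5 in fiber, and mitosis sums from 2605 to 2784 and from 156 to 226.

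Crystallins rose together in fiber, with a pair of exceptions. All 8 gamma crystallin genes and 6 of 8 alpha and beta crystallin genes were higher in fiber, 8 and 6 with totals as well, and their median log2 differences were 6.11 and 4.65. In all 14 of them each fiber library lay above each epithelium library, which also held for 39.3% of all genes tested. The exceptions were Cryab and Crybb2, and Crybb2 was called lower when totals were used.

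The promoters of alpha and beta crystallin genes are shown because the transcription factor Maf, whose own gene was among those higher in fiber, is known to act on crystallin genes through Maf recognition elements. Below are the 120 bases before the RefSeq start of 5 of the 6 alpha and beta genes that were higher (GRCm38.p6), 5′ to 3′ on the gene's strand, with the core TGCTGA of such an element, or its reverse complement in Crybb3, in capitals.
Cryaa (chr17:31677811-31677930, plus strand): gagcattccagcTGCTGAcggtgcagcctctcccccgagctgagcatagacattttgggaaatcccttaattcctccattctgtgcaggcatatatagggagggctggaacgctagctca
Cryba1 (chr11:77725294-77725413, minus strand): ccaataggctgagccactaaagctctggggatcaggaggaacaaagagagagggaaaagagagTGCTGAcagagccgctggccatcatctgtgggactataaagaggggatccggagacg
Cryba4 (chr5:112252519-112252638, minus strand): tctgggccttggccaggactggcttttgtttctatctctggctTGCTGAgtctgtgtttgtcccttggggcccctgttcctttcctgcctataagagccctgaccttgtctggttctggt
Crybb1 (chr5:112255700-112255819, plus strand): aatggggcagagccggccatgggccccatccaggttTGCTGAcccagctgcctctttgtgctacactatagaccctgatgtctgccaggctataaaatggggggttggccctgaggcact
Crybb3 (chr5:113081585-113081704, minus strand): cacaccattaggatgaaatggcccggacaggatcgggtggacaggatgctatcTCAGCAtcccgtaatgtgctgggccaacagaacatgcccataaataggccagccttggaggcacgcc
The first capital base lies at -108, -57, -77, -84 and -67 relative to the start, in the order shown. Searched on both strands in the window from 250 bases before to 50 after the start, this core was in 6 of 7 alpha and beta crystallin windows (85.7%), which are those of the 6 genes higher in fiber and not that of Crybb2, in 4 of 8 gamma crystallin windows (50%), 19.1% of the windows of genes higher in fiber, 14.2% of those lower and 15.3% of all 12261 windows. Cryab, which was not higher in fiber either, had no window and was not searched. The contrast with alpha and beta genes that did not rise therefore rests on Crybb2 alone. Whether the core goes with the rise in fiber was not tested. A match is a match of letters and not a measured binding site.

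Cryaa, the alpha A crystallin gene, encodes a small heat shock protein that keeps other crystallins soluble. It measured 6547, 7301 and 8407 CPM in epithelium and 97969, 109110 and 96813 in fiber, 13.7-fold higher (log2 3.77 ± 0.14 SE, edgeR adjusted p = 5.47e-17). Its partner gene Cryab, which is also made in many other tissues, measured 646, 926 and 670.4 CPM in epithelium and 662, 727 and 771 in fiber, and these values overlapped (log2 -0.05 ± 0.14, edgeR adjusted p = 0.75). Its sign turned when epithelium replicate 2 (log2 0.13) or fiber replicate 1 (log2 0.0033) was left out.

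Beta crystallins are structural proteins that form dimers and larger oligomers. Cryba1 measured 1549, 1402 and 1790.1 CPM in epithelium and 50282, 52359 and 52698 in fiber (32.8-fold). For Cryba4 the values were 135, 114 and 192 and 9286, 10293 and 9192 (65.2-fold, the largest ratio of the alpha and beta genes), and for Crybb1 703, 617 and 953 and 30618, 34102 and 25290 (39.6-fold). Crybb3 (19.2-fold) and Cryba2 (42.3-fold) were higher in every fiber library as well. Epithelium replicate 3 had the highest epithelium value for each of these 5 genes. Crybb2, the main beta crystallin of the grown lens, was low in both tissues, at 4.35, 4.21 and 4.86 CPM in epithelium and 3.25, 3.55 and 3.63 in fiber (log2 -0.38 ± 0.65, edgeR adjusted p = 0.6), and each fiber library was below each epithelium library.

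Gamma crystallins are small monomers of the dense lens core. Cryga to Crygf are close copies on chromosome 1, and their promoters are shown to set the family's likeness beside its joint rise. Below are the 100 bases before the start, with capitals on the runs TTTGTG and TATATA, the longest runs that all 6 share (6 bases), which were found by comparing the sequences and not looked for in advance. A longer row of capitals in Cryga and Crygb arises where 2 copies of the second run overlap.
Cryga (chr1:65103364-65103463, minus strand): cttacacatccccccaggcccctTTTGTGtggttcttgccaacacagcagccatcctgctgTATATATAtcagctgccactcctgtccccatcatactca
Crygb (chr1:65082291-65082390, minus strand): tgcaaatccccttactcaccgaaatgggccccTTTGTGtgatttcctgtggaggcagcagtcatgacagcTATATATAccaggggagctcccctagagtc
Crygc (chr1:65073533-65073632, minus strand): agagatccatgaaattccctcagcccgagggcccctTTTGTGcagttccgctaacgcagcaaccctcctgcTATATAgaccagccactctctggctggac
Crygd (chr1:65063441-65063540, minus strand): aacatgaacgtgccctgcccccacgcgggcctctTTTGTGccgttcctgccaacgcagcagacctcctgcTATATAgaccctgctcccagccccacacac
Cryge (chr1:65051164-65051263, minus strand): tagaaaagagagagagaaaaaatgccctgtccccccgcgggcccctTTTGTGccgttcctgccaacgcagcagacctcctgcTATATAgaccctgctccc
Crygf (chr1:65926422-65926521, plus strand): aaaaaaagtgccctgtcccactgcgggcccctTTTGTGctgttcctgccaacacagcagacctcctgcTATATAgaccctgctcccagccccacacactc
The second run starts at -39 and -37 in Cryga, -30 and -28 in Crygb, -29 in Crygc, -30 in Crygd, -18 in Cryge and -32 in Crygf.

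In fiber Cryga measured 31139, 33926 and 32772 CPM, against 394, 336 and 568 in epithelium (75.4-fold). Crygb rose from 71.2, 73.8 and 77.6 to 6700.0, 7362 and 7423 CPM, 96.5-fold (log2 6.59 ± 0.25, edgeR adjusted p = 5.40e-17), the largest ratio of all crystallins. Crygf was 92.9-fold, Crygd 80.9-fold, Cryge 63.3-fold and Crygc 44.6-fold higher in fiber. The values of single members are uncertain, since read-length stretches of 100 bases are shared within the family: 22.8% of those of Crygb with Crygc, 15.8% of those of Crygd with Cryge, and 47.7% of those of Cryga with the gene model Gm28845. Crygn and Crygs share none. Crygn, an early branch between beta and gamma crystallins, rose from 57.1, 47.7 and 56.2 to 2384, 2528 and 2638 CPM (46.9-fold), and Crygs, a crystallin of later fibers, from 33.6, 42.4 and 39.3 to 227, 233 and 227 (5.95-fold), the smallest ratio in the family.

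Levels per kilobase use the length of all annotated exons of a gene joined, which can exceed that of its main transcript. By this measure the order in fiber was Cryaa at 48794 CPM per kb ± 3271 (SD, n = 3), Cryga at 44674 ± 1918, Cryba1 at 32484 ± 821 and Crybb1 at 30460 ± 4506, out of 11977 genes that could be ranked. Cryba1 and Crybb1 did not differ beyond their spread by this measure. The nuclear long noncoding RNA Malat1 came next at 13496 ± 394. In epithelium Cryaa also led, at 3573 CPM per kb ± 451, followed by Malat1 at 1791 ± 128, Cryba1 at 992 ± 123 and the imprinted RNA H19 at 936 ± 42.9. The last 2 did not differ beyond their spread. The longest coding transcripts of Cryga, Cryba1 and Crybb1 have 625, 778 and 882 bases. An order by transcript length was not computed and may differ.

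**Figure D3:**
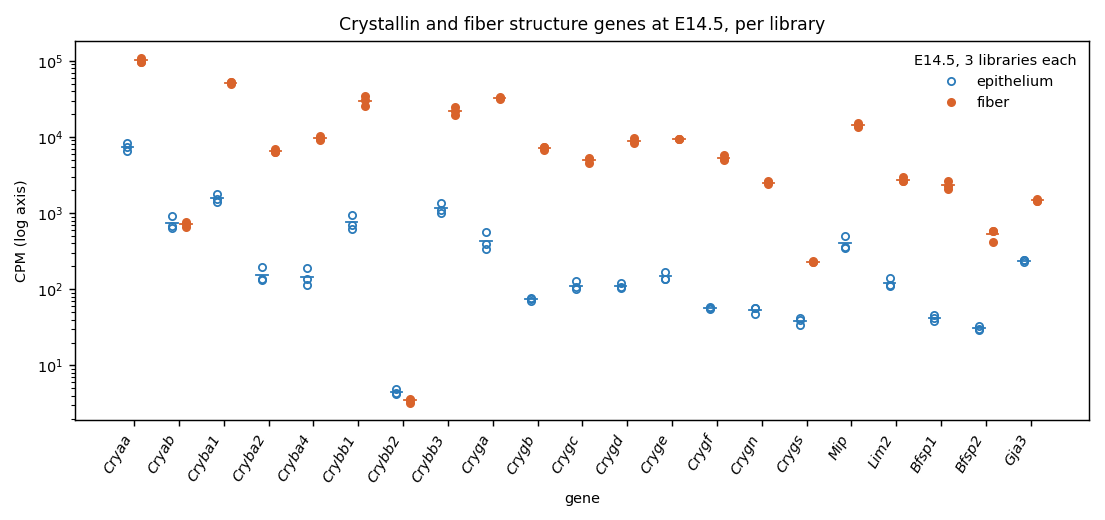
CPM on a log axis of 16 crystallin and 5 fiber structure genes in each E14.5 library, blue open circles for epithelium, orange filled circles for fiber, bars at the mean of 3 libraries. Cryab (646, 926 and 670.4 against 662, 727 and 771 CPM) overlaps between the tissues, Crybb2 lies at 3.25 to 4.86 CPM in both, and the other 19 genes have every fiber library above every epithelium library.

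Other proteins of the fiber membrane and the beaded filament, the intermediate filament found only in lens fibers, were mostly higher in fiber. Of 20 genes tested 13 were higher and 1 lower in fiber (median 2.35; 11 and 1 with totals). Mip, the water channel that becomes the main protein of the fiber membrane, measured 355, 349 and 499.9 CPM in epithelium and 13767, 15294 and 13519 in fiber (35.4-fold, log2 5.14 ± 0.19, edgeR adjusted p = 4.67e-17). Of the 2 beaded filament genes, Bfsp1 went from 37.8, 46.7 and 41.8 to 2089, 2606 and 2286 CPM (55.2-fold) and Bfsp2 from 32.9, 29.5 and 30.2 to 585, 582 and 414 (17.1-fold), with fiber replicate 3 below the other two for Bfsp2. Lim2, which encodes a membrane protein that joins fibers, rose 22.6-fold to 2760.2 ± 180.1 CPM.

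Genes of cell contacts moved both ways. Gja3 (connexin 46), which forms gap junctions between fibers, went from 227, 240.4 and 244 CPM in epithelium to 1449.5, 1551 and 1436 in fiber (6.24-fold). Gja1 (connexin 43), the connexin of the epithelium, did the reverse, from 172, 186 and 182 to 12.4, 10.1 and 8.09 CPM (17.5-fold lower). The adhesion gene Nrcam was 16.7-fold and the actin-capping gene Tmod1 26.4-fold higher in fiber. Birc7, an inhibitor of apoptosis, had the largest ratio of the list at low levels, 0.0792, 0.276 and 0.24 CPM in epithelium and 14.1, 21.4 and 15.3 in fiber. Cdh2 (N-cadherin) and Vim (vimentin), which both tissues use, differed by log2 0.14 and 0.39, below 2-fold and negative when totals were used, and the junction gene Jam2 was lower in fiber (log2 -3.61). Grifin, a lens galectin without sugar binding, was higher (log2 2.30 ± 0.40). Hspb1 was called higher at under 1 CPM in every library, and 42.7% of its read-length stretches are shared with a pseudogene. Its value is therefore uncertain.

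Nuclei and organelles are still present at E14.5, and a subset of the genes for their later loss was already high. Of 26 organelle loss and autophagy genes 12 were higher and none lower (median 0.91), but with totals 5 were higher and 3 lower (median 0.09). Dnase2b, the nuclease that later degrades fiber DNA, measured 0.871, 0.345 and 0.66 CPM in epithelium and 49.4, 54.9 and 54.8 in fiber (84.5-fold, log2 6.40 ± 0.28, edgeR adjusted p = 8.32e-16). Every fiber library was above every epithelium library for this gene. Its relative Dnase2a, the general nuclease of lysosomes, stayed at or below 1.04 CPM in every library. The phospholipase genes Pla2g7 (28, 23.1 and 33.7 against 1549, 1605 and 1662 CPM) and Pla2g16 (27.8, 24.8 and 25.9 against 451, 448 and 496), the second known to take part in organelle loss in the lens, rose 56.6-fold and 17.8-fold. Tfeb, a master regulator of lysosome genes, was 6.05-fold higher, the autophagy gene Gabarapl1 5.25-fold, and the lysosome genes Ctsd and Lamp1 3.49-fold and 2.92-fold. Bnip3l, a mitochondrial receptor for autophagy, was just past 2-fold (2.08-fold). Ctsd, Lamp1 and Bnip3l fell short of 2-fold with totals. The lysosome gene Lamp2 overlapped between the tissues, and the kinase gene Ulk1, which starts autophagy, had each fiber library below the epithelium but missed 2-fold (log2 -0.78).

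RNA-binding proteins that act on messages in long-lived fibers were mixed, with 7 of 20 genes higher, 2 lower and 11 not called (median 0.27; 4 and 5 with totals, median -0.55). Caprin2 measured 67.7, 74.7 and 69.6 CPM in epithelium and 1693, 2127 and 2225 in fiber (28.5-fold), and Tdrd7, whose loss causes cataract, 101, 108 and 119.8 and 1812, 1989 and 1987 (17.6-fold). Rbm24 (6.36-fold) and Celf1 (3.28-fold), further RNA regulators of the lens, were higher as well, and so was Carhsp1 (8.24-fold). The poly(A)-binding protein gene Pabpc1 was higher as well (log2 1.23), and with totals Celf1 and Pabpc1 stayed under 2-fold. Lin28a, an inhibitor of let-7 processing, was lower (log2 -3.60, 5.7, 3.59 and 6.42 against 0.53, 0.28 and 0.422 CPM), as was Elavl2 (log2 -2.92), while Lin28b and the 3 Igf2bp genes stayed within 2-fold.

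Channels and pumps differed by gene: 6 of 17 were higher and 5 lower (median -0.26; 6 and 10 with totals). The potassium channel gene Kcnj6 went from 0.792, 0.345 and 0.3 CPM in epithelium to 28.8, 40.3 and 39.7 in fiber, and Scnn1b, for 1 chain of an epithelial sodium channel, from 2.22, 2.48 and 2.94 to 151, 171 and 166 (62.9-fold). Both groups of values were far apart. The calcium channel genes Cacna1d and Cacna1a were 4.26-fold and 3.77-fold higher. Atp1b1, for an accessory chain of the sodium pump, was higher in fiber (1.42, 2 and 3 against 12.7, 11.8 and 11.2 CPM). The water channel gene Aqp5 had no count in any epithelium library and lay at 0.464, 0.187 and 0.422 CPM in fiber.

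Transcription factors of fiber differentiation did not move as a block. Of 13 tested 4 were higher and 3 lower (median 0.15; 3 and 5 with totals, median -0.66). Hsf4, a heat shock factor needed for fiber maturation, rose most, from 6.41, 6.14 and 6.96 CPM in epithelium to 223, 252 and 221 in fiber (35.5-fold, log2 5.15 ± 0.10, edgeR adjusted p = 1.90e-21). Maf went from 399, 396 and 389.9 to 1902, 2031 and 1809 (4.85-fold), its small partner gene Mafg from 48.2, 47 and 50.3 to 189, 183 and 168 (3.71-fold), and Sox1, an activator of gamma crystallin genes, from 208, 214 and 228 to 512, 533 and 551 (2.46-fold, under 2-fold with totals). Prox1, which drives elongation and cell cycle exit, did not reach 2-fold, at 591, 636 and 614 and 1155, 1174 and 1099 CPM (log2 0.90 ± 0.07). Pitx3 (log2 -0.49) and Gata3 (0.50, below 0 with totals) stayed within 2-fold too. Sox11, Mef2c and Tshz2 were lower in fiber (log2 -2.11, -3.61 and -1.99), and Mef2c is also expressed in vessels.

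Of 19 transcription factors of lens progenitors and the epithelium 10 were lower in fiber and none higher (median -1.28; 14 lower with totals). Foxe3, which keeps epithelial cells dividing, fell from 198, 209.6 and 329 CPM in epithelium to 24.5, 22.5 and 20.4 in fiber (10.9-fold, edgeR adjusted p = 1.97e-13), with epithelium replicate 3 above the other two. Tfap2a fell from 116, 118 and 122 to 16.8, 14.4 and 13.2 CPM (7.96-fold). Pax6, the master gene of eye formation, fell from 410.3, 453 and 411 to 191, 164 and 170.2 (2.42-fold), and Sox2 from 51, 53 and 46.6 to 17.1, 16 and 10.7 (3.42-fold). Six3 (112, 109 and 116 against 115, 104 and 92.7 CPM) overlapped between the tissues. Meis1 was 2.39-fold lower, and its relative Meis2 missed 2-fold at log2 0.59, which turned negative with totals. Rax and Lhx2, which the retina also expresses, were among the 10 at no more than 2.35 and 2.28 CPM. Rax lost its call without epithelium replicate 2 (log2 -0.83), epithelium replicate 3 (-1.34), fiber replicate 1 (-1.14) or fiber replicate 2 (-1.30), and Lhx2 without fiber replicate 1 (-2.04).

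Surface and secreted markers of the epithelium were mostly lower in fiber: of 12 tested 8 were lower and 1 higher (median -2.14; 9 and 0 with totals). Cdh1 (E-cadherin) measured 493, 494 and 525 CPM in epithelium and 32.9, 28.2 and 32.2 in fiber (16.2-fold lower, log2 -4.01 ± 0.11, edgeR adjusted p = 2.22e-19). Npnt, a ligand of the basement membrane, fell 13.5-fold, Pdgfra, the receptor by which growth factor sets epithelial division, 6.11-fold, and the glutamine transporter gene Slc38a3 5.91-fold. The 2 secreted Wnt inhibitors of the list parted: Sfrp2 went from 415, 271 and 504 down to 31.2, 14.1 and 24.8 CPM, and Sfrp1 from 532, 588 and 579.6 up to 1714, 1752 and 1676 (3.02-fold). With totals the value for Sfrp1 fell below 2-fold. Itga6, a laminin receptor chain, did not reach 2-fold (log2 0.72, below 0 with totals).

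**Figure D4:**
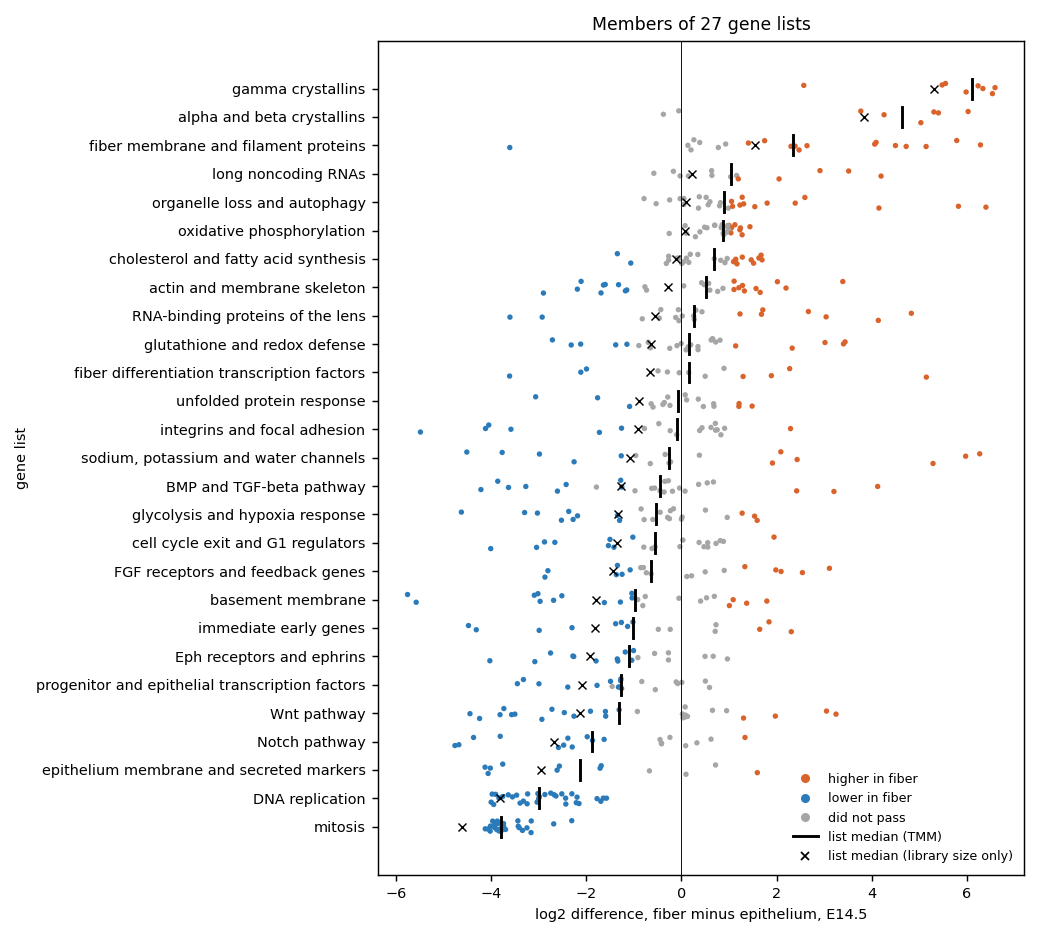
Log2 difference between E14.5 fiber and epithelium for each tested member of 27 gene lists (points, with a small random vertical offset), ordered by median. Black bars give the list median with TMM and crosses the median with totals: gamma crystallins lead at 6.11, and DNA replication (-2.99) and mitosis (-3.80) are last.

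Genes of the dividing cell were lower in fiber throughout. All 30 mitosis genes and all 32 DNA replication genes were lower in fiber, with either scaling, at median log2 differences of -3.80 and -2.99, which leave 7.2% and 12.6% of the epithelium level. Each of the 62 had every fiber library below every epithelium library (39.2% of all genes tested). The proliferation marker Mki67 measured 560.0, 537 and 542 CPM in epithelium and 39.2, 24.4 and 41.3 in fiber (15.5-fold lower, log2 -3.96 ± 0.15, edgeR adjusted p = 3.92e-17). Top2a, topoisomerase II alpha of dividing cells, went from 439, 435 and 446 to 33.5, 21.1 and 29 CPM. The cyclin genes Ccnb1 (16.7-fold) and Ccna2 (15.4-fold) and the kinesin gene Kif23 (17.4-fold, the largest fall of the mitosis list) fell about as far as Cdk1 (13.9-fold), Aurkb (16.1-fold) and Cenpf (15.2-fold). Cdca8 fell least, 4.94-fold. Replication genes spread more widely, from Orc6 (2.98-fold) and the helicase subunit gene Mcm2 (3.12-fold) to Mcm6 (11.7-fold) and Rrm2 (16-fold), which makes deoxynucleotides. Summed over the list, mitosis genes measured 2730.0, 2605 and 2784 CPM in the epithelium libraries and 216, 156 and 226 in the fiber libraries, with fiber replicate 2 the lowest. For endothelium markers the fiber order was different (29.8, 38.5 and 26), with replicate 2 the highest, and the reason for these orders was not tested.

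Promoters of 5 mitosis genes are shown because genes of late cell cycle phases share a known element, the cell cycle genes homology region (CHR, TTTGAA), through which they are silenced in resting cells. Below are the 80 bases before the start, with the CHR, or its reverse complement in Top2a and Kif11, in capitals.
Top2a (chr11:99024190-99024269, minus strand): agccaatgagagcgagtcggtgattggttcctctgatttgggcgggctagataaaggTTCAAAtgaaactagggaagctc
Cdk1 (chr10:69352913-69352992, minus strand): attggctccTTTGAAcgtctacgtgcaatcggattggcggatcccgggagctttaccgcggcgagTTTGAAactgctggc
Kif11 (chr19:37376302-37376381, plus strand): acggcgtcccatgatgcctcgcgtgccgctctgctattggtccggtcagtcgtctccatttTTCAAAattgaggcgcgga
Cdc20 (chr4:118437344-118437423, minus strand): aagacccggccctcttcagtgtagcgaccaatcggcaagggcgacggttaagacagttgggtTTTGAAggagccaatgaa
Espl1 (chr15:102296213-102296292, plus strand): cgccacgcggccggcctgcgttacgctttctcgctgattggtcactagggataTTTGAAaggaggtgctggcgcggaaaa
The first capital base lies at -23 in Top2a, at -71 and -15 in Cdk1, at -19 in Kif11, -18 in Cdc20 and -27 in Espl1. On either strand of the 300-base windows, TTTGAA was in 21 of 28 windows of mitosis genes (75%), 4 of 28 of DNA replication genes (14.3%), 14.9% of those of genes lower in fiber, 11.2% of those higher and 11.7% of all. CCAAT, the box often found upstream of it, was in 22 of 28 mitosis windows (78.6%) and 37.7% of all windows, and both were in 19 of 28 (67.9%) and 4.78%.

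Regulators of the G1 phase and of cell cycle exit were less uniform in direction. Of 21 tested 8 were lower and 1 higher (median -0.55; 11 and 1 with totals). Cdkn1c (p57), the cyclin-dependent kinase inhibitor of lens fibers, measured 372, 396 and 304 CPM in epithelium and 676, 681 and 619 in fiber, and it did not reach 2-fold (log2 0.88 ± 0.09). Per kilobase it was the highest of 5 inhibitor genes in epithelium, at 175 CPM per kb ± 23.3 (SD, n = 3). Cdkn1b (p27) differed by log2 0.37, negative with totals. The inhibitor genes Cdkn2c and Cdkn1a were lower in fiber (log2 -4.01 and -1.50). Of the D cyclins, Ccnd1 was 2.03-fold lower, and it missed 2-fold without epithelium replicate 1 (log2 -0.99), fiber replicate 2 (-0.96) or fiber replicate 3 (-0.96). Ccnd2, at 1196, 1131 and 1172 CPM in epithelium and 753, 633 and 637 in fiber, missed 2-fold, as did Ccnd3. Within the retinoblastoma family, Rb1 (log2 0.82) and Rbl2 (0.56, below 0 with totals) missed 2-fold, while Rbl1, itself a gene of dividing cells, was 7.34-fold lower. Gadd45a was the member called higher (1.66, 2.42 and 2.28 against 8.42, 8.69 and 7.76 CPM).

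Fibroblast growth factor receptors and their feedback genes were split. Of 19 tested 5 were higher and 6 lower in fiber (median -0.64; 4 and 10 with totals). Of the receptors, Fgfr3 went from 99.6, 113 and 110.4 CPM in epithelium to 450.1, 489 and 443 in fiber (4.27-fold, edgeR adjusted p = 8.40e-15), while Fgfr1 (log2 0.50, below 0 with totals) and Fgfr2 (-0.74, 207, 222 and 231 against 128, 133 and 135 CPM) missed 2-fold. The feedback inhibitors Spry1 (12, 9.11 and 12.4 against 101, 105 and 84.6 CPM, 8.65-fold) and Spry2 (3.96-fold) were higher, and Dusp6 (2.54-fold), Spred2 (2.37-fold) and Il17rd (6.99-fold) lower. The target gene Etv5 was 2.52-fold higher with TMM alone. Fgf1, the ligand gene that the lens itself expresses, was 7.29-fold lower. The adaptor gene Shc1 was 5.83-fold higher.

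In the Notch pathway the ligand gene Jag1 was higher in fiber, from 351, 375 and 327 CPM to 839.6, 955 and 865 (2.53-fold), and 11 of 19 genes were lower (median -1.87; 0 higher and 15 lower with totals). The receptor genes Notch2 (197, 221 and 230.5 against 37.5, 35.3 and 35.2 CPM, 5.99-fold), Notch1 (3.65-fold) and Notch3 (3.08-fold) were lower, as was the target gene Hes1 (5.22-fold). The 4 largest falls of the list were those of Mfng (27.1-fold), Dll4 (25.6-fold), Heyl (20.6-fold) and Notch4 (14-fold). Dll4 and Notch4 are known genes of endothelium, whose markers fell by 5.39 (median log2), and the part of vessels in these values was not tested. The target gene Hey1 overlapped between the tissues.

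BMP and TGF-beta genes showed 3 of 25 higher and 8 lower (median -0.45; 3 and 16 with totals). The Id genes, targets of BMP that block differentiation factors in many tissues, were divided: Id2 went from 22.6, 20.1 and 22.6 CPM in epithelium to 408, 349.8 and 383 in fiber (17.5-fold, log2 4.13 ± 0.11, edgeR adjusted p = 1.12e-19) and Id1 from 6.73, 6.9 and 8.04 to 47.8, 37.4 and 31.2 (5.36-fold), and Id3 fell from 46.5, 41.3 and 44.3 to 9.01, 6.35 and 5.99 (6.08-fold). No values overlapped for these 3 genes. The type I receptor gene Bmpr1b was 9.24-fold higher at a low level (14.6, 17.3 and 15.2 CPM in fiber), and the related gene Bmpr1a missed 2-fold. The ligand gene Bmp7 was 9.64-fold lower, and so were Tgfbr2 (12.4-fold) and Tgfb1 (14.51-fold), both below 13 CPM in every library. Tgfb2, per kilobase the highest of the 3 TGF-beta ligand genes in epithelium (49.8 CPM per kb ± 3.34), missed 2-fold.

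Of 27 Wnt pathway genes 14 were lower and 4 higher (median -1.31; 15 and 3 with totals). The higher genes were all secreted: the ligand genes Wnt7a (6.09, 6 and 9.24 against 61.9, 76.7 and 67.9 CPM, 9.51-fold), Wnt5b (3.93-fold) and Wnt7b (2.47-fold), and Dkk3, a member of a family of Wnt inhibitors, at 135, 153 and 162 against 1194, 1303 and 1229.8 CPM (8.29-fold). Of these, Wnt7b did not pass with totals. Among the receptors Fzd7 fell from 150.5, 147 and 171 to 13, 10.6 and 11.5 CPM (13.3-fold, edgeR adjusted p = 7.31e-21), Fzd2 11.9-fold and the coreceptor gene Lrp5 6.59-fold, while Lrp6 and Fzd3 stayed within 2-fold. The target genes Axin2 (4.78-fold) and Lef1 (18.9-fold) were lower, and Ctnnb1 (beta-catenin) was within 2-fold, at 603, 614 and 628 and 634, 674 and 651 CPM. Of 18 Eph receptor and ephrin genes, which set contacts between neighbouring cells, 11 were lower and none higher (median -1.11; 15 lower with totals). Efna5, a ligand needed for fiber packing, was 2.26-fold lower (193, 224 and 216 against 95.9, 91.6 and 91.8 CPM), Efna1 16.3-fold and Ephb4 6.73-fold, and the receptor gene Epha2 missed 2-fold (log2 0.50, below 0 with totals). Ephb4 and Efna1 are also known from vessels.

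Both tissues make the lens capsule, the basement membrane around the lens, and its genes were divided by chain. Of 22 tested 4 were higher and 11 lower (median -0.98; 0 and 13 with totals). The type IV collagen genes Col4a1 (2081, 2130.0 and 2204 against 2998, 3193 and 3067 CPM) and Col4a2 stayed within 2-fold, and Col4a5 (2.01-fold) and Col4a6 (2.13-fold) just passed with TMM. Col4a5 missed 2-fold without epithelium replicate 3 (log2 0.96). The laminin genes Lamb1 (2.43-fold) and Lamc1 (420.0, 423 and 428 against 140.2, 142 and 132 CPM, 3.07-fold) and the heparan sulfate proteoglycan genes Agrn (7.83-fold) and Col18a1 (8.08-fold) were lower. The largest falls were those of Lama4 (54-fold) and Col15a1 (47.6-fold), known components of vessel walls, and the part of vessels in them was not tested. Their fiber values were highest in replicate 2. Without that library the log2 difference of Col15a1 was -6.30 in place of -5.57. Of 19 integrin and focal adhesion genes 1 was higher, Itga2 (4.91-fold), and 6 lower (median -0.10; 1 and 9 with totals). Itgb1, the common beta chain, missed 2-fold (302, 314 and 284 against 508, 506 and 502 CPM). Itga3, a laminin receptor chain, fell from 89.4, 99.3 and 74.3 to 5.9, 3.64 and 5.31 CPM (17.3-fold), and Itga5 (12-fold) and Itga1 (44.7-fold), both also of vessels, were lower too, as was Vcl (vinculin, 3.3-fold).

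Genes of the cell skeleton moved both ways, often within a family. Of 28 actin and membrane skeleton genes 10 were higher and 9 lower (median 0.53; 3 and 11 with totals, median -0.28). In the spectrin net under the cell membrane, Sptbn1 went from 439.5, 448 and 486 CPM in epithelium to 4557, 4874 and 4999 in fiber (10.5-fold, edgeR adjusted p = 9.82e-20) and Sptan1 from 838, 861 and 860.2 to 3296, 3460.5 and 3612 (4.05-fold), and both passed with totals. The linker genes Epb41 (3.15-fold) and Add1 (2.15-fold) and the ezrin gene Ezr (2.16-fold) passed with TMM, as did the ankyrin gene Ank2 of the fiber list (2.66-fold), while the ankyrin gene Ank3 was 2.26-fold lower and missed 2-fold without epithelium replicate 3 (log2 -0.98). Of the tropomyosins, which line actin filaments, Tpm1 (4.31-fold) and Tpm4 (103, 91.1 and 95 against 14.9, 12.1 and 11.4 CPM, 7.46-fold) fell, and Tpm2 (log2 0.76) and Tpm3 (0.05) missed 2-fold, both below 0 with totals. Of the nonmuscle myosins, Myh9 (409, 411 and 445 against 129.7, 132 and 131 CPM, 3.22-fold) and Myh10 (3.11-fold) fell and Myh14 rose, from 1.98, 2.55 and 1.98 to 9.74, 11.9 and 8.51 CPM (4.59-fold). Moesin (Msn, 3.03-fold) was lower where its relative ezrin was higher. Among tropomodulins, caps of actin filaments, Tmod1 (log2 4.72) and Tmod2 (1.57) were higher and Tmod3 (-2.19) lower.

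Calls in energy metabolism shifted with the scaling. Of 24 glycolysis and hypoxia genes 9 were lower and 3 higher (median -0.52; 16 and 0 with totals). The lower ones included lactate handling: Ldha went from 334, 295 and 351 CPM in epithelium to 77.2, 63.6 and 61 in fiber (4.84-fold) and the lactate carrier gene Slc16a1 from 42.9, 44.2 and 44.6 to 5.5, 5.05 and 5.56 (8.14-fold). The glucose transporter gene Slc2a1, an epithelium marker, fell 3.27-fold. Hif1a was 2.53-fold lower, and Epas1, its relative in endothelium, 24.6-fold. Vegfa, the growth factor of the capillaries, was higher in fiber, at 60.5, 66.1 and 66.9 and 196, 192 and 197 CPM (3.02-fold with TMM). Gapdh was called higher, but 78% of its read-length stretches are shared with the gene model Gm7336, so its value is uncertain. Of 26 oxidative phosphorylation genes 8 were higher and none lower (median 0.89), by at most 2.72-fold (Cox7b), whereas with totals none was higher and 1 lower (median 0.08). Of 27 genes of cholesterol and fatty acid synthesis 10 were higher and 2 lower (median 0.69), such as Scd2 (966, 925 and 1061 against 3113, 3342 and 3109 CPM, 3.24-fold) and Lss (3.2-fold), and with totals none was higher and 5 lower (median -0.12).

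In glutathione and redox defense 5 of 26 genes were higher and 5 lower (median 0.17; 4 and 9 with totals, median -0.64). Gss, which makes glutathione, went from 50.9, 49.5 and 55.7 CPM to 542, 584 and 532 (10.6-fold, log2 3.41 ± 0.08, edgeR adjusted p = 6.34e-20), Hmox1 from 4.43, 5.11 and 5.76 to 50.1, 65.2 and 53.1 (10.9-fold) and Gpx1 from 72.3, 59.6 and 80.7 to 355, 359.6 and 355 (5.03-fold). The cystine carrier gene Slc7a11, which feeds the same pathway, went the other way, from 171, 168 and 192 to 25.9, 24.3 and 30.8 CPM (6.54-fold), and the peroxiredoxin gene Prdx6 was 2.6-fold lower. Gclc, the enzyme gene between them, overlapped (22.4, 23.1 and 26.5 and 26.2, 24.4 and 29 CPM). Of 18 genes of the unfolded protein response 3 were higher, Atf4, Herpud1 and Pdia6 (log2 1.49, 1.21 and 1.21), and 3 lower, Hspa5, Edem1 and Sdf2l1 (-1.09, -1.76 and -3.06). Hspa5 missed 2-fold without epithelium replicate 1 (log2 -0.96). The list's median was -0.08, and with totals 9 were lower and none higher. Of all genes tested 14% were higher and 19.4% lower, and with TMM both lists of this paragraph lay near those shares.

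Immediate early genes, which can respond to handling of tissue within minutes, were 3 higher and 8 lower of 15 (median -1.02; 2 and 10 with totals). Myc, a driver of growth, fell from 51.4, 32.4 and 49.9 CPM in epithelium to 2.92, 1.03 and 2.53 in fiber (19.8-fold), while Dusp1 (4.96-fold), Zfp36 (3.59-fold) and Klf6 (3.13-fold) were higher. Fos (3.01, 2.07 and 3.84 and 1.66, 1.68 and 3.12 CPM) overlapped between the tissues. Of 13 long noncoding RNAs 5 were higher and none lower (median 1.04; 4 and 1 with totals, median 0.23). Malat1 went from 11685, 13465 and 12380 CPM to 97201, 93756 and 91765 (7.53-fold), Miat from 27.4, 42 and 37 to 609, 642 and 708 (18.3-fold), Snhg12 from 14.1, 12.7 and 13.9 to 133, 159.9 and 172 (11.4-fold) and Neat1 from 25.3, 29.7 and 28.6 to 109, 122 and 117 (4.15-fold). H19 was 2.29-fold higher with TMM.

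Outside the lists, the genes named are the 12 with the largest difference each way among called genes with at least 50 CPM in the higher tissue. Nlrc5, known as an activator of MHC class I genes, led the higher ones, at 0.871, 1.24 and 0.3 CPM in epithelium and 51.4, 85.3 and 67.2 in fiber (85.8-fold, log2 6.42 ± 0.31, edgeR adjusted p = 4.89e-15). Pappa, a protease of growth factor binding proteins, measured 1.19, 1.66 and 1.2 and 95.8, 113 and 96.4 CPM (75-fold), and Lenep, whose full name is lens epithelial protein, 7.68, 8.56 and 7.62 and 452, 502 and 481 CPM (60.1-fold). Lenep was thus higher in each of the 3 fiber libraries than in any of epithelium. Several genes better known from muscle were among the 12: Mypn (myopalladin), Igfn1 and Pgam2, the muscle phosphoglycerate mutase, which went from 4.27, 2.48 and 3.9 to 173, 197 and 194 CPM. Mypn was uneven, at 164, 129.9 and 19.8 CPM in fiber against 2.22, 0.345 and 1.8 in epithelium, with replicate 3 several times below the other two (log2 6.18 ± 0.87). Igfn1 was also uneven, at 31, 73.4 and 52.5 CPM in fiber. Palm2 (48.3-fold), Fam89a (47.2-fold), the myosin gene Myo7b (45.8-fold), the sorting nexin gene Snx22 (44.9-fold), the stress gene Ndrg1 (43.8-fold) and the neural adhesion gene Lsamp (42.3-fold) complete the 12.

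Among the lower genes R3hdml led, at 135, 149 and 169.6 CPM in epithelium and 3.05, 2.99 and 1.69 in fiber (58.1-fold, log2 -5.86 ± 0.26, edgeR adjusted p = 8.04e-16). Igfbp5, which binds insulin-like growth factors, measured 1654, 1898 and 1935 and 42.3, 30.2 and 38.8 CPM (49.1-fold), and the imprinted gene Mest 1339, 1138 and 1462 and 58.6, 43.7 and 59 (24.3-fold). Lrtm1 fell 44.8-fold, Arsi, a sulfatase gene, 28.2-fold, the heparan sulfate editing gene Sulf1 26.1-fold, the adhesion gene Tenm2 27.5-fold and the axon guidance gene Draxin 21.7-fold. For Igfbp5, Mest, Lrtm1, Arsi, Sulf1, Tenm2 and Draxin, fiber replicate 2 was the lowest fiber library. Nrp1, Ets1, Cd93 and Plxnd1 (38.8-fold, 34.9-fold, 29.9-fold and 23.2-fold) are genes known from endothelium, and for these 4 fiber replicate 2 was the highest fiber library. The part of vessels in these values was not tested. Pappa lies at chr4:65124174-65357509, Nlrc5 at chr8:94434356-94527272, R3hdml at chr2:163492318-163502612 and Igfbp5 at chr1:72857932-72874884 (GRCm38).

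Whether the tissues differ in the same way later was tested as the log2 difference at E14.5 minus the mean of the differences at E16.5, E18.5 and P0.5. For 644 genes (5.18%) the difference was higher at E14.5 and for 250 (2.01%) lower. The counts were 2076 and 99 with totals. Of the 644, 313 were lower in epithelium at E14.5 than later with no call in fiber, 129 were higher in fiber with no call in epithelium, and 160 had a call in neither tissue alone. Of the 250, 134 were lower in fiber at E14.5 with no call in epithelium.

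In the 6 largest lower values the fiber level climbed after E14.5. Crybb2 stood at 3.47 CPM in E14.5 fiber and reached 19.3, 1004 and 1978 at the later stages (difference of log2 differences -4.36 ± 0.70 SE, edgeR adjusted p = 3.62e-05). Fabp5, a fatty acid binding protein, went from 18.4 over 111 and 750.2 to 964 CPM (-3.67), and the ankyrin gene Ank1 from 3.15 to 41.3 (-3.61). Clic5, an intracellular chloride channel protein (-5.86), the protocadherin gene Pcdh17 (-3.80) and Tbc1d30 (-3.51) complete the 6. Clic5, Pcdh17, Tbc1d30 and Crybb2 lay below the epithelium at E14.5, at log2 -1.92, -0.79, -1.56 and -0.38, and their means lay above it at P0.5. Clic5 was at no more than 0.97 CPM in any E14.5 library. It lost its call at E14.5 without epithelium replicate 2 (log2 -1.67) or fiber replicate 1 (-1.43). With E16.5 as the only later stage, a comparison added after the data were seen, Crybb2 (-2.19, adjusted p = 0.0958 in edgeR) and Tbc1d30 (-1.01, adjusted p = 0.279 in edgeR) did not pass.

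The 6 largest higher values were Sorcs1 (4.96), Col9a2 (4.92), Tmprss11e (4.35), Gria1 (4.20), Fam129a (4.19) and Ntrk2 (4.13). In all 6 the epithelium level climbed steeply between E16.5 and E18.5, as for Col9a2, at 2, 4.52, 69.2 and 73.3 CPM at the 4 stages, against 6 CPM in E14.5 fiber. Retina markers climbed in the same libraries, from a sum of 15 to 24.4 CPM at E14.5 to 115 to 178 at E18.5 and P0.5, and pigment cell markers from 8.16 to 16 to 91.1 to 224. The part of those cells in these 6 values was not tested. Against E16.5 alone, Sorcs1, Fam129a and Ntrk2 passed and Col9a2, Tmprss11e and Gria1 did not. Among the lists, 8 of 30 mitosis genes (26.7%) had a higher and 2 a lower value at E14.5 with TMM (median 0.78). Of all genes tested 5.18% were higher and 2.01% lower. Mitosis was not alone: Eph receptors and ephrins had 27.8% higher and 5.56% lower, and channels and pumps 23.5% and 5.88%. Of the markers, 44.4% for retina and 85.7% for pigment cells were higher. DNA replication genes had 1 of 32 higher and 3 lower (median -0.13). Top2a was 27.9 CPM in E14.5 fiber and 6.22 at P0.5, and its fall from epithelium to fiber was smaller at E14.5 than later (1.03). Miat, the long noncoding RNA, measured 653 CPM in E14.5 fiber against 305, 61 and 44.1 later (3.05, edgeR adjusted p = 2.69e-08), while epithelium stayed between 28.8 and 57.9. Crygs moved the opposite way (-2.62), from 229 CPM in E14.5 fiber to 6954 at P0.5.

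**Figure D5:**
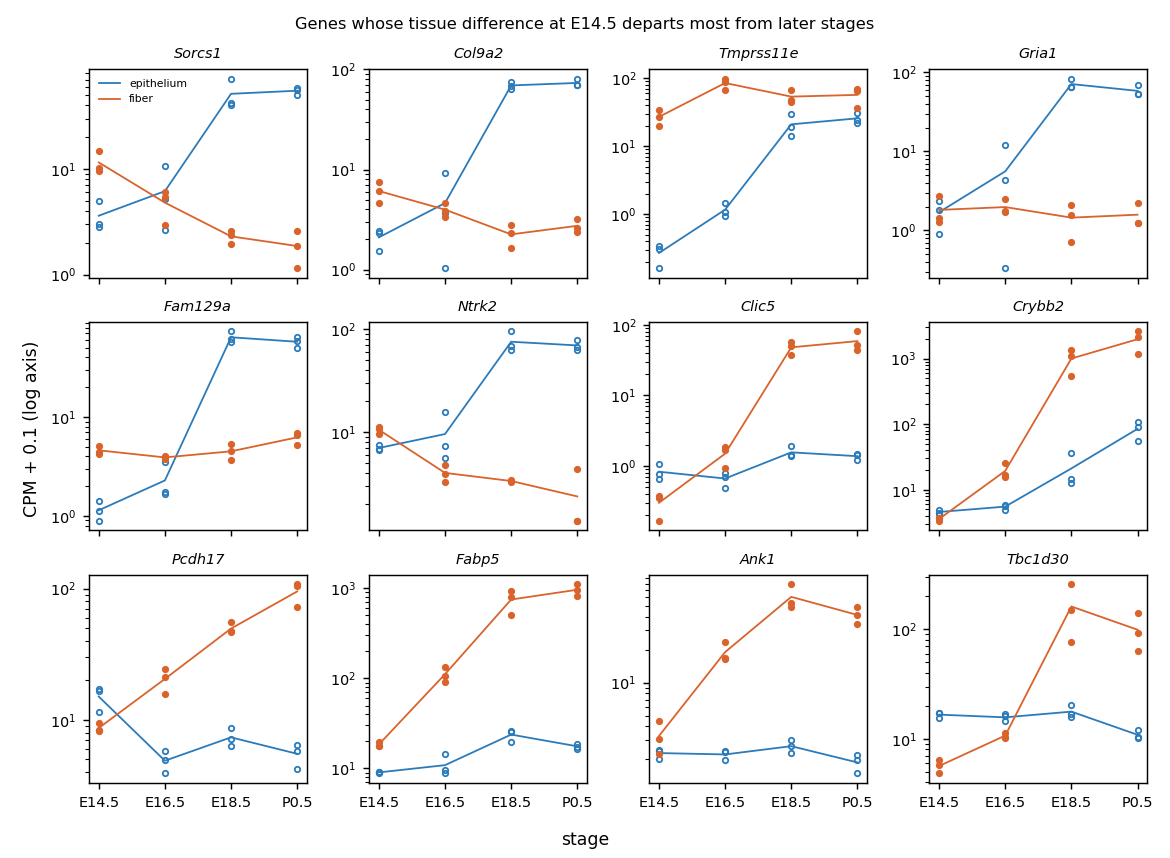
CPM plus 0.1 on a log axis at 4 stages for the 12 genes whose tissue difference at E14.5 departs most from later stages, with points for libraries and lines through the means, blue for epithelium and orange for fiber. In the first 6 genes the epithelium line climbs after E16.5 (Col9a2 from 4.52 to 69.2 CPM), and in the last 6 the fiber line climbs (Fabp5 from 18.4 to 964 CPM).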

How the data were processed

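Total RNA depleted of ribosomal RNA was sequenced as 100 base paired reads from 24 libraries, of which the 6 of E14.5 are described. The authors deposited 1 table of raw read counts per gene for 12611 genes, and no row of it was set aside. The submitters' processing notes name Trim Galore 0.4.1, TopHat2 2.0.13, HTSeq 0.6.1, Cufflinks 2.2.1, Cuffdiff and the mm10 build, without their roles. The library kit marks strand, per the labels' protocols, but no source used here gives the strand setting of the counting or the choice of genes, so overlapping and antisense genes may share counts.

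The counts were tested with edgeR 4.0.16 (R 4.3.3) by quasi-likelihood, with TMM scaling and all 24 libraries in 8 groups, which gives 16 residual degrees of freedom and a biological coefficient of variation of 0.0821. The filter (a minimum count of 10 and a total of 15) left 12427 genes. Adjusted p-values are Benjamini-Hochberg over all of them. The steps were tested on simulated data in which a small set of genes was raised or lowered in equal numbers. The simulation held no broad shift between the tissues, so it does not bear on the choice of scaling. With 3 libraries a group the smallest p of an exact permutation test is 0.1, so none was used. Every pair of replicates differed by more than sampling noise (chi-square per degree of freedom 10.1 to 38.2). Nothing names separate animals, so p-values measure the spread between libraries. Intervals of counting error were not needed, since every value has replicates.

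Genes outside the lists were named by rule: the 12 largest called differences each way with at least 50 CPM in the higher group. Predicted genes, histones, small RNAs and genes of the lists were left out. For the comparison with later stages the 6 largest each way were named, with at least 50 CPM in any of the 8 groups. In that comparison genes of the lists, such as Crybb2, were kept. The lists, these rules and the choice of libraries were made with earlier results of these data known. Promoters are from RefSeq (GRCm38.p6), and gene lengths and positions from GENCODE M21 (GRCm38), in which 97.9% of symbols matched 1 gene. The alternatives were other scalings and filters, DESeq2 1.42.0, the 6 libraries alone, a replicate block and leaving out each library.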

Additional observations from a re-analysis of the deposited data

Results flagged for a closer look

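For 644 genes the log2 difference between fiber and epithelium was higher at E14.5 than the mean of later stages, and for 250 it was lower, by an interaction term of the edgeR fit over all genes (adjusted p under 0.05 and at least 2-fold). The 12 named genes were singled out by the same test of the difference itself. The values were 4.96 for Sorcs1, 4.92 for Col9a2, 4.35 for Tmprss11e, 4.20 for Gria1, 4.19 for Fam129a and 4.13 for Ntrk2, and -5.86 for Clic5, -4.36 for Crybb2, -3.80 for Pcdh17, -3.67 for Fabp5, -3.61 for Ank1 and -3.51 for Tbc1d30. Retina and pigment cell markers climbed in the epithelium libraries of E18.5 and P0.5, as given above, and their part in the first 6 values was not tested.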

How the results depend on the processing

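The 1736 higher and 2407 lower calls moved to 751 and 5147 when libraries were scaled by their totals and to 979 and 3792 with totals that left out crystallin genes and Rn45s, with the medians given above. The other planned settings gave 1323 to 1747 higher and 1925 to 2463 lower, and leaving out each E14.5 library gave 1719 to 1766 and 2379 to 2425. For the comparison with later stages, totals gave 2076 higher and 99 lower, leaving out each library 561 to 695 and 227 to 268, and E16.5 as the only later stage 124 and 99, of which 102 and 81 were among the 644 and 250. Values just above 0 with TMM turned negative with totals, where the shift of the median is larger than they are: Ank1 -0.32, Bmpr1a -0.14, Ccnd3 -0.26, Cdh2 -0.67, Cdkn1b -0.44, Col4a1 -0.28, Col4a2 -0.408, Ctnnb1 -0.73, Epha2 -0.31, Fgfr1 -0.31, Fzd3 -0.16, Gata3 -0.31, Gclc -0.67, Gria1 -0.79, Itga6 -0.0934, Itgb1 -0.0597, Lamp2 -0.76, Lrp6 -0.73, Meis2 -0.22, Ntrk2 -0.22, Rbl2 -0.26, Tpm2 -0.0478, Tpm3 -0.76 and Vim -0.43. Without crystallin genes and Rn45s in the totals, 14 of them stayed negative: Ank1 -0.0304, Cdh2 -0.38, Cdkn1b -0.14, Col4a2 -0.11, Ctnnb1 -0.43, Epha2 -0.0156, Fgfr1 -0.0131, Gata3 -0.0132, Gclc -0.37, Gria1 -0.50, Lamp2 -0.46, Lrp6 -0.43, Tpm3 -0.46 and Vim -0.13. Gria1 was also negative with DESeq2 size factors (-0.0186), and without single libraries it ran from -0.37 to 0.32, and Cryab from -0.15 to 0.13. A replicate block gave 1742 higher and 2420 lower at E14.5 and 681 and 255 against later stages. Deviations of epithelium and fiber libraries with the same number had r of 0.127, -0.0551 and 0.0022 (numbers 1 to 3), so the block was not made the main result, and whether embryos were shared is not known. Genes near 1 CPM, such as Clic5 and Aqp5 in fiber, rest on few counts.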
